A study of Drosophila melanogaster with 25 samples.

Results

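A small set of Drosophila melanogaster genes known only by a CG number gave higher RNA signals in leg and wing discs than in eye and antennal discs. Imaginal discs are the larval epithelia that form the adult appendages and eyes: leg and wing discs belong to the thorax, and eye and antennal discs to the head. A CG number is the identifier a gene model received in the fly genome annotation, and a gene keeps it as its symbol until it is named. The set was chosen from the measured values. In each gene with such a symbol, the lowest of the wild-type leg, wild-type wing and UAS-ey leg group means had to lie at least 0.7 log2 above the higher of the wild-type eye and wild-type antennal means. Of 5209 CG-numbered genes with a probe set of their own, among 11981 genes in all, 8 met this limit: CG15353, CG34166, CG11370, CG13067, CG13678, CG9593, CG9372 and CG14598. The thoracic excess in those 5 groups is therefore the way the genes were chosen and is described here without a test.

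RNA came from discs of the third larval instar, and each sample was hybridised to 1 Affymetrix array. The 25 arrays comprised ato-mutant UAS-ey, UAS-ey and wild-type leg discs, UAS-ey and wild-type wing discs, wild-type eye discs, and Uey and wild-type antennal discs. Each group had 3 arrays, except the wild-type eye discs with 4. UAS-ey is a transgene for ectopic expression of eyeless (ey), the Pax6-type transcription factor that directs eye formation, and atonal (ato) encodes the proneural factor with which photoreceptor formation begins. Replicates are biological, per the series' design text. Neither the driver of the transgene nor the ato allele is given in the labels. They also do not spell out Uey, and it is read here as ectopic ey in antennal discs. Values are log2 signals. All arrays shared the same lowest value, 6.91, which was treated as a floor, so a change that starts or ends there is a lower bound and its fold is given as "at least".

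The thoracic and head segments of the fly are told apart by Hox genes and by other region-specific transcription factors. Antp, a Hox gene of the thorax, and tsh, a zinc finger gene of the trunk, act on the thoracic side, and Dfd is a Hox gene of the head. These genes followed the disc labels. Antp averaged 11.32 in wild-type leg and 11.25 in wild-type wing discs and was at the floor on every eye and antennal array. Over the wild-type groups tsh averaged 11.37 in leg and 11.52 in wing discs, against 10.29 in eye and 10.33 in antennal discs. Dfd averaged 9.23 in eye and 11.24 in wild-type antennal discs and was at the floor in both wild-type thoracic discs. Other trunk and head markers did not split thorax from head. Scr averaged 10.70 in wild-type leg discs, but was at the floor in wing and eye discs. In every group pb was at the floor, and tio lay at or near it in the wild type. Ubx had no probe set of its own. The wing gene vg averaged 12.40 in wild-type wing discs, 8.71 in wild-type leg discs, 8.43 in wild-type antennal discs and the floor in eye discs.

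The signal of ey itself did not follow the labels. It averaged 12.53 in ato-mutant UAS-ey, 10.59 in UAS-ey and 12.04 in wild-type leg discs, 12.43 in wing discs with UAS-ey and 12.12 in those without, 10.85 in eye discs, and 10.56 in antennal discs labelled Uey and 10.87 in wild-type ones. Where the probes of ey lie relative to the transgene is not stated, and the ey signal split along the array sets described below. The ey signal is therefore no check of ectopic expression, and ato had no probe set of its own. Genes that act after ey did follow the labels: eya, a retinal determination gene, averaged 12.07 in UAS-ey against 8.15 in wild-type leg discs, 11.54 in UAS-ey against 9.75 in wild-type wing discs, and 11.34 in Uey against 9.44 in wild-type antennal discs. The groups are therefore called by their labels. Dissected discs also carry other tissue such as muscle precursors, tracheal branches, haemocytes and scraps of fat body, and in such bulk samples fewer cells of a type and less RNA per cell cannot be told apart.

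The arrays fell into separate sets by a bacterial spike-in signal that measures no fly gene. The 3' r2-Bs-phe control read 9.77 to 11.15 on 12 arrays, those of ato-mutant UAS-ey and wild-type legs and both groups of wing discs, and 7.89 to 9.50 on the 13 arrays of UAS-ey leg, eye and antennal discs. The ranges of the other 5 phe control probe sets overlapped. Thoracic and head discs thus lay largely in different sets, with UAS-ey leg discs as the only thoracic group in the lower one. The group means of ey split along the same sets, at 12.04 to 12.53 in the higher and 10.56 to 10.87 in the lower one. The cause of this split was not tested. Without UAS-ey leg discs in the rule, 133 CG-numbered genes would have passed in place of 8. The 4 fat body markers with a probe set of their own also set the arrays apart. Their summed linear signal was 742 to 10191 over the eye arrays, where replicate 4 was the highest, and 29387 to 40016 over the ato-mutant UAS-ey leg arrays. Replicates of the antennal discs were close to each other, with a standard deviation of the difference between 2 arrays of 0.0769 to 0.110 in Uey discs and 0.125 to 0.145 in the wild type, against 0.131 to 0.330 in wild-type wing discs. The labels do not say whether replicates came from separate animals or pools, so p-values measure only the spread between these arrays.

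CG15353 had the largest margin under the rule, 2.005. In leg discs it read 12.88, 12.94 and 12.76 with UAS-ey and the ato mutation, 11.11, 11.16 and 11.39 with UAS-ey, and 11.96, 12.24 and 11.78 in the wild type. In wing discs it read 12.69, 12.32 and 12.65 with UAS-ey and 12.58, 11.39 and 11.39 in the wild type. The head arrays gave 7.76, 7.16, 9.05 and 8.91 in wild-type eye, 6.9997, 7.14 and 7.14 in Uey antennal and 9.17, 9.21 and 9.25 in wild-type antennal discs. Every thoracic array lay above every head array, with signals of 11.11 to 12.94 against 6.9997 to 9.25. Among the head discs the Uey antennal arrays were the lowest, close to the floor, and the eye arrays were split, with replicates 3 and 4 near the wild-type antennal level.

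CG34166 had a margin of 1.97 and varied more between replicates than CG15353. Its leg values were 13.62, 13.26 and 13.30 with UAS-ey and the ato mutation, 10.21, 12.26 and 12.41 with UAS-ey, and 11.68, 11.40 and 12.28 in the wild type. Its wing values were 12.07, 11.70 and 10.30 with UAS-ey and 12.09, 12.47 and 12.92 in the wild type. In head discs it read 6.91, 6.91, 7.59 and 12.88 in wild-type eye, 7.01, 6.94 and 7.08 in Uey antennal and 9.58, 9.71 and 9.66 in wild-type antennal discs. Eye replicate 4 was as high as the wild-type wing arrays, while replicates 1 and 2 were at the floor, so thoracic and head arrays overlapped. The probe set of CG34166 carries the Affymetrix suffix _s_at, given where the probes match more than 1 transcript, so near-identical transcripts cannot be told apart in its signal.

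CG11370, with a margin of 1.97, varied widely within wild-type wing discs. In leg discs the signals were 11.58, 10.62 and 12.05 with UAS-ey and the ato mutation, 9.95, 9.78 and 10.05 with UAS-ey, and 10.91, 10.18 and 9.68 in the wild type. In wing discs they were 11.30, 10.34 and 10.60 with UAS-ey and 11.96, 9.83 and 8.63 in the wild type. In head discs they were 6.91, 6.99, 8.81 and 9.13 in wild-type eye, 6.91, 6.91 and 6.91 in Uey antennal and 7.27, 6.95 and 7.13 in wild-type antennal discs. Eye replicates 3 and 4 were above wild-type wing replicate 3, the only overlap between head and thorax. All 3 Uey antennal arrays were at the floor.

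CG13067 reached thoracic levels on all 3 Uey antennal arrays. Its leg signals were 11.80, 10.82 and 11.42 with UAS-ey and the ato mutation, 9.47, 9.18 and 9.74 with UAS-ey, and 9.83, 9.40 and 8.96 in the wild type. Wing discs gave 9.86, 8.66 and 7.87 with UAS-ey and 9.47, 8.42 and 7.63 in the wild type. It was at the floor on all 4 eye and all 3 wild-type antennal arrays, but read 9.44, 9.41 and 9.55 in Uey antennal discs. The Uey antennal arrays thus lay within the range of UAS-ey and wild-type leg discs and above most wing arrays. In both wing groups replicate 1 was the highest array. The margin under the rule was 1.59.

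CG13678, with a margin of 1.2045, was at the floor on 9 of the 10 head arrays. Leg discs read 11.11, 10.58 and 10.12 with UAS-ey and the ato mutation, 8.28, 7.97 and 8.31 with UAS-ey, and 8.87, 9.38 and 8.83 in the wild type. Wing discs read 9.61, 9.11 and 9.26 with UAS-ey and 9.72, 8.36 and 7.95 in the wild type. The one head array above the floor was eye replicate 4, at 7.19, still below the lowest thoracic value of 7.95. As with CG11370 and CG13067, wild-type wing replicate 1 stood above the other two.

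CG9593 had a margin of 1.14 and low, even signals. Leg discs gave 8.99, 8.79 and 8.89 with UAS-ey and the ato mutation, 8.82, 8.75 and 8.84 with UAS-ey, and 9.18, 9.17 and 8.93 in the wild type. Wing discs gave 8.0047, 8.55 and 8.39 with UAS-ey and 8.83, 8.29 and 8.26 in the wild type. It was at the floor on every eye and Uey antennal array and read 7.30, 7.40 and 7.25 in wild-type antennal discs. All 15 thoracic arrays were above all 10 head arrays, and leg arrays were mostly above wing arrays.

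CG9372, which the RefSeq gene table also lists as SP34, had a margin of 0.81 and low signals throughout. Its leg values were 9.97, 8.93 and 9.83 with UAS-ey and the ato mutation, 8.36, 8.38 and 8.36 with UAS-ey, and 8.66, 8.48 and 8.11 in the wild type. Its wing values were 8.73, 8.87 and 8.73 with UAS-ey and 8.84, 8.56 and 8.40 in the wild type. Head discs read 7.12, 7.20, 7.27 and 7.34 in wild-type eye, 7.30, 7.26 and 7.26 in Uey antennal and 7.53, 7.49 and 7.64 in wild-type antennal discs. No head array reached the lowest thoracic array, and replicates 1 and 3 of the ato-mutant UAS-ey leg discs stood above all other arrays.

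CG14598 had the smallest margin, 0.78, and its signals were ordered by genotype. Its leg signals were 11.62, 10.99 and 11.16 with UAS-ey and the ato mutation, 10.78, 10.61 and 10.74 with UAS-ey, and 8.84, 8.24 and 8.33 in the wild type. Wing discs gave 10.14, 9.65 and 9.92 with UAS-ey and 9.15, 9.30 and 9.25 in the wild type. Head discs gave 7.83, 7.71, 7.79 and 7.42 in wild-type eye, 8.88, 8.89 and 8.82 in Uey antennal and 7.44, 7.41 and 7.16 in wild-type antennal discs. In leg, wing and antennal discs alike, all arrays with ectopic ey were above all wild-type arrays of the same disc. The wild-type leg arrays were the lowest of the thorax and overlapped the Uey antennal arrays.

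**Figure D1:**
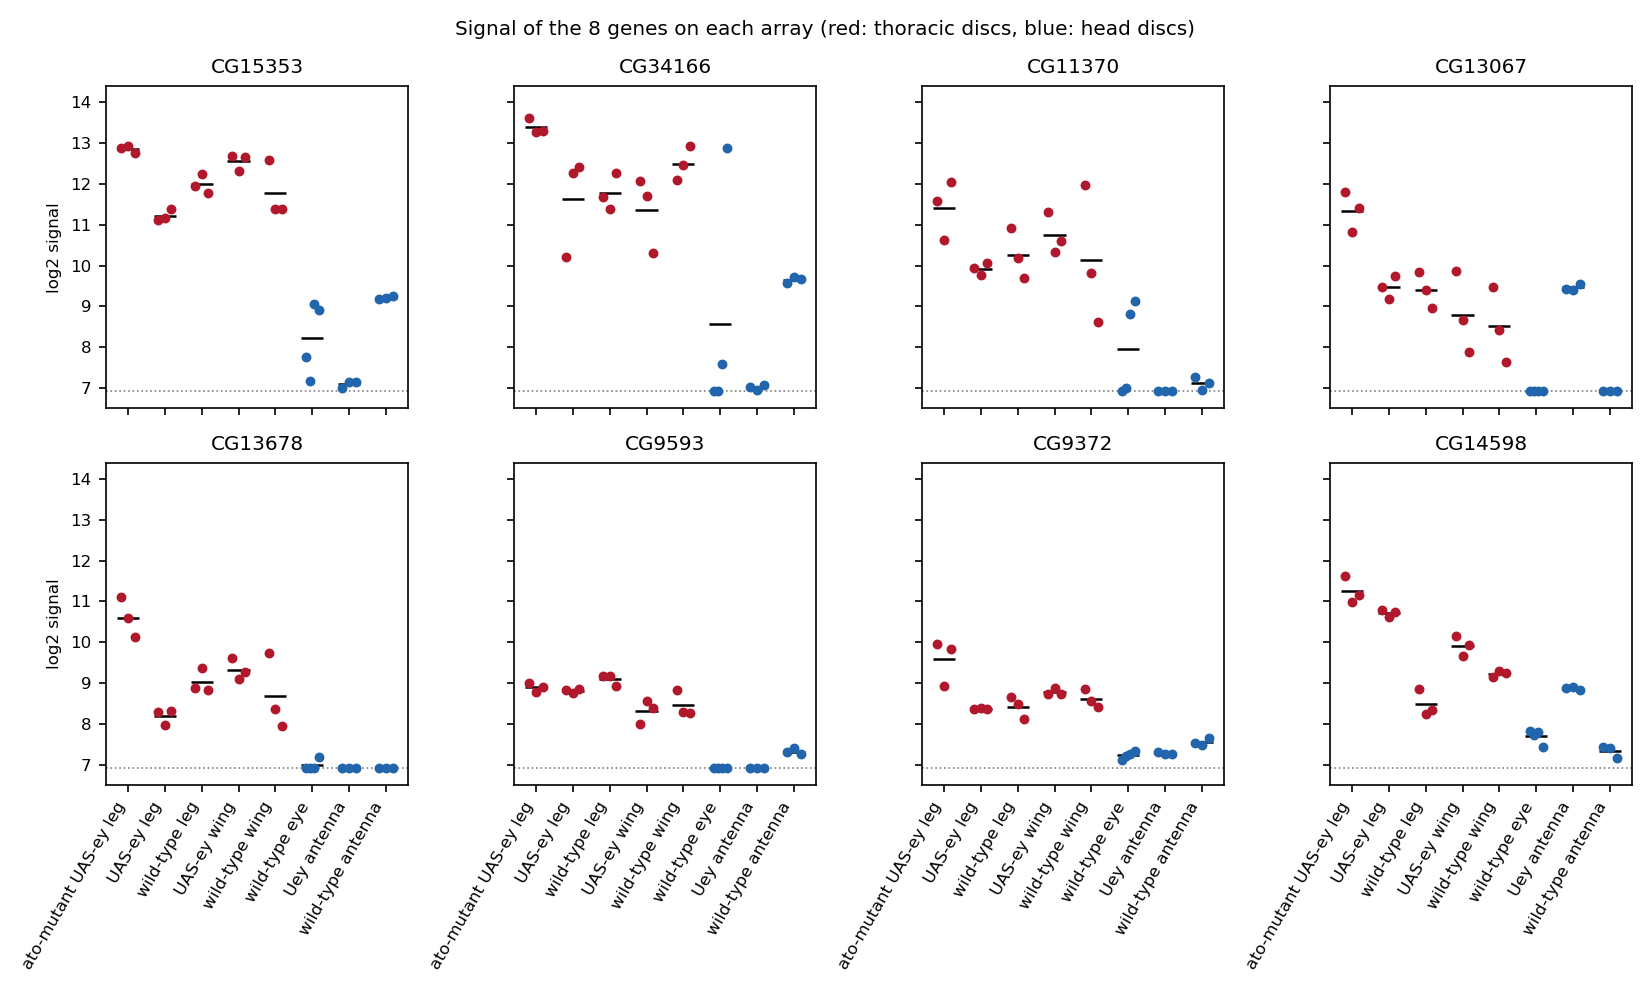
Log2 signal of the 8 CG-numbered genes on each of the 25 arrays, with points for arrays in order of replicate number, black bars for group means and a dotted line at the floor of 6.91. CG13067 stands at the floor in eye and wild-type antennal discs but between 9.41 and 9.55 in Uey antennal discs, and eye replicate 4 of CG34166 stands at 12.88.

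The 3 members closest to the limit of the rule were CG9593 (1.14), CG9372 (0.81) and CG14598 (0.78), and the CG-numbered genes just outside were CG9747 (0.68), CG12009 (0.63) and CG17105 (0.55). Membership of CG14598 was lost without wild-type leg replicate 1 or eye replicate 4 and when medians replaced means, and the other 7 genes stayed members in each of these cases. At a limit of 0.5 the set had 12 genes and at 1.0 it had 6. The opposite pattern, with both wild-type head discs at least as far above the 3 thoracic groups, was shown by 4 CG-numbered genes.

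Among 6772 genes with names, 27 met the same limit. The 10 with the largest margins were Antp (4.30), the cuticle protein gene Cpr64Aa (3.75), the wing gene nub (2.61), the fat body genes Lsp2 (2.33) and Fbp2 (2.28), the odorant-binding protein gene Obp99b (1.82), bond (1.81), Cpr12A (1.44), the GATA factor gene grn (1.32) and slf (1.29). The remaining 17 included tsh (1.05), the muscle precursor genes twi (0.97) and htl (0.78), another fat body gene, Fbp1 (1.19), and apolpp (1.25). Obp99b and apolpp were at the floor on 3 of the 4 eye arrays, and their highest eye values were 12.44 and 11.31. The named genes thus held both regional regulators of the thorax and some genes of fat body and muscle precursors. Of the 8 measured muscle precursor markers only twi and htl met the limit. Among the wild-type discs kirre was highest in eye (10.53) and ct in antennal discs (10.07). In every group sns was at the floor, and Him, zfh1 and vg also stayed outside the limit.

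RefSeq's gene table (Release 6 assembly of the fly genome) matched all 8 genes, lists them as protein-coding and gives no function for them. CG15353 and CG34166 lie on chromosome arm 2L, CG11370, CG13067, CG13678 and CG9372 on 3L, and CG9593 and CG14598 on 3R. No build is named for the array values, so no coordinates are given. Of the 32 protein-coding genes that flank the members, 2 on each side, none was itself a member. Among them 25 had a probe set of their own, and 0 met the limit. Only eIF4E3, beside CG13678, had a margin above 0, of 0.06. The 4 measured neighbours of CG13067 had margins between -0.18 and -0.03. Neither the neighbours of CG34166 nor those on one side of CG11370 had probe sets of their own.

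The same thoracic excess was then tested in groups that the rule did not use. UAS-ey wing and ato-mutant UAS-ey leg discs, averaged with equal weight, were set against Uey antennal discs. Of the 8 genes, 7 were higher in the thoracic discs by limma with an adjusted p under 0.05. Over all 18769 probe sets 17.6% were higher and 10% lower, and 26 of the 27 named genes that met the limit were higher. The median difference of the 8 genes was 2.48, against 0 over all probe sets. CG15353 was higher by 5.61 (SE 0.33, adjusted p = 5.3e-10), a 48.9-fold difference, and CG34166 by 5.36 (SE 0.94, adjusted p = 3.2e-04). Against Uey antennal discs at the floor, CG11370 was at least 17.98-fold higher (adjusted p = 4.2e-05), CG13678 at least 8.29-fold (adjusted p = 2.8e-07) and CG9593 at least 3.23-fold (adjusted p = 3.8e-09). CG9372 was higher by 1.90 (SE 0.16, adjusted p = 1.6e-07) and CG14598 by 1.72 (SE 0.14, adjusted p = 1.0e-07). The difference of CG13067 was 0.61 (SE 0.37, adjusted p = 0.264), with overlapping arrays.

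All 6 thoracic arrays of this comparison belonged to the set with the higher phe signal and all 3 antennal arrays to the other, so disc and array set cannot be told apart. All 4 fat body, all 7 haemocyte, 7 of 9 salivary gland and 5 of 8 muscle precursor markers were higher in the thoracic discs too, among them the larval serum protein gene Lsp2 by 4.50 (SE 0.84) and Fbp2 by 4.25 (SE 0.57). Tracheal markers were mixed, with 3 of 8 higher and 2 lower. With the mean fat body marker signal as a covariate, an alternative added after the data were seen, CG34166 differed by -0.47 (SE 0.46, adjusted p = 0.78), and CG11370 by 3.50 (SE 1.11), no longer past the threshold (adjusted p = 0.0997). In the same fit, where 1.88% of all probe sets were higher and 1.79% lower, the other 5 genes that had been called stayed called. There CG15353 stood at 5.13 (SE 0.60) and CG14598 at 1.92 (SE 0.27). In the fit without the covariate, 2 of the 8 muscle precursor markers were lower in the thoracic discs. The part of haemocyte, salivary gland and muscle precursor RNA in these differences was not tested. With the phe control as a covariate the calls for CG34166 (2.37, adjusted p = 0.989) and CG11370 (3.28, adjusted p = 0.463) ended, and the other 5 held. That fit called 0.448% of all probe sets higher and 0.852% lower.

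**Figure D2:**
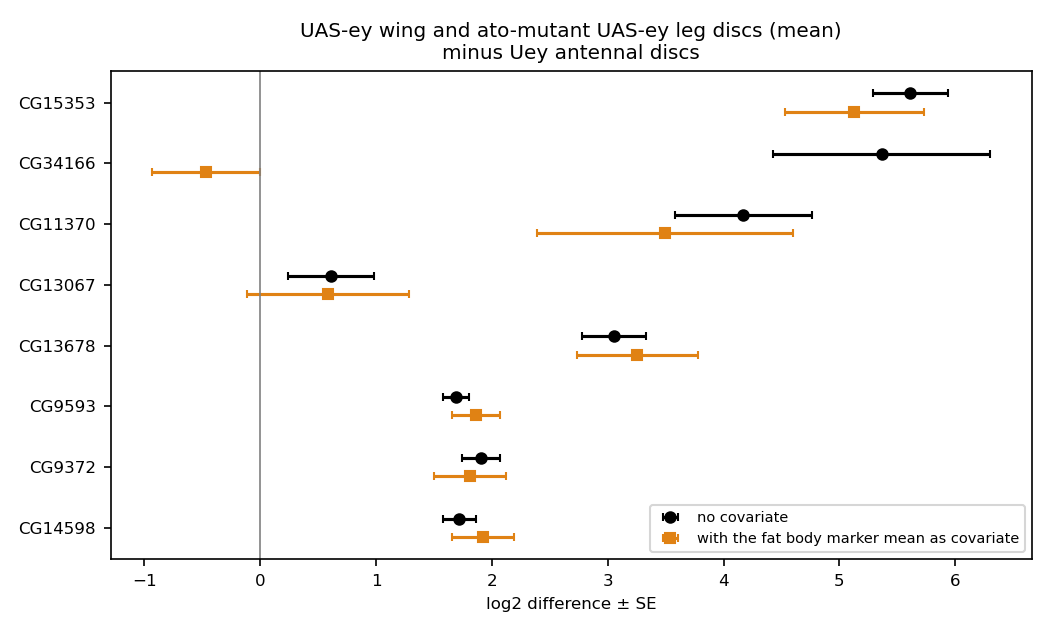
Log2 difference (± SE from limma) of the 8 genes between the mean of UAS-ey wing and ato-mutant UAS-ey leg discs and Uey antennal discs, without a covariate (circles) and with the mean fat body marker signal as a covariate (squares). CG34166 stands at 5.36 without and at -0.47 with the covariate, whereas CG15353 stands at 5.61 and 5.13.

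CG34166 was high on the same arrays as some of the fat body markers, among them Lsp2. Lsp2 encodes a larval serum protein made in the fat body, and Fbp1 and Fbp2 are fat body protein genes. In wild-type eye discs Lsp2 read 7.49, 7.23, 7.48 and 12.28, beside 6.91, 6.91, 7.59 and 12.88 for CG34166. In UAS-ey leg discs Lsp2 read 10.03, 11.82 and 11.80, beside 10.21, 12.26 and 12.41 for CG34166, and replicate 1 was the low array for both. In UAS-ey wing discs Lsp2 read 11.55, 10.76 and 9.36, beside 12.07, 11.70 and 10.30. Replicate 3 was the lowest for both genes there, and in wild-type wing discs, with Lsp2 at 10.85, 12.27 and 12.62, replicate 3 was the highest for both. The ato-mutant UAS-ey leg arrays held the highest values of both. Not all markers followed this order. Fbp1 read 9.72, 10.94 and 9.94 in UAS-ey wing discs, with replicate 1 the lowest. Col4a1, a basement membrane collagen gene that haemocytes also express, read 8.08, 8.74, 8.86 and 8.93 in eye discs and 11.35, 11.14 and 11.36 in UAS-ey leg discs, with no high array in the first group and no low array in the second. CG15353, CG13067 and CG9593 did not follow this order in eye discs: CG13067 and CG9593 were at the floor on replicate 4, and CG15353 was as high on replicate 3, where Lsp2 was at 7.48, as on replicate 4.

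**Figure D3:**
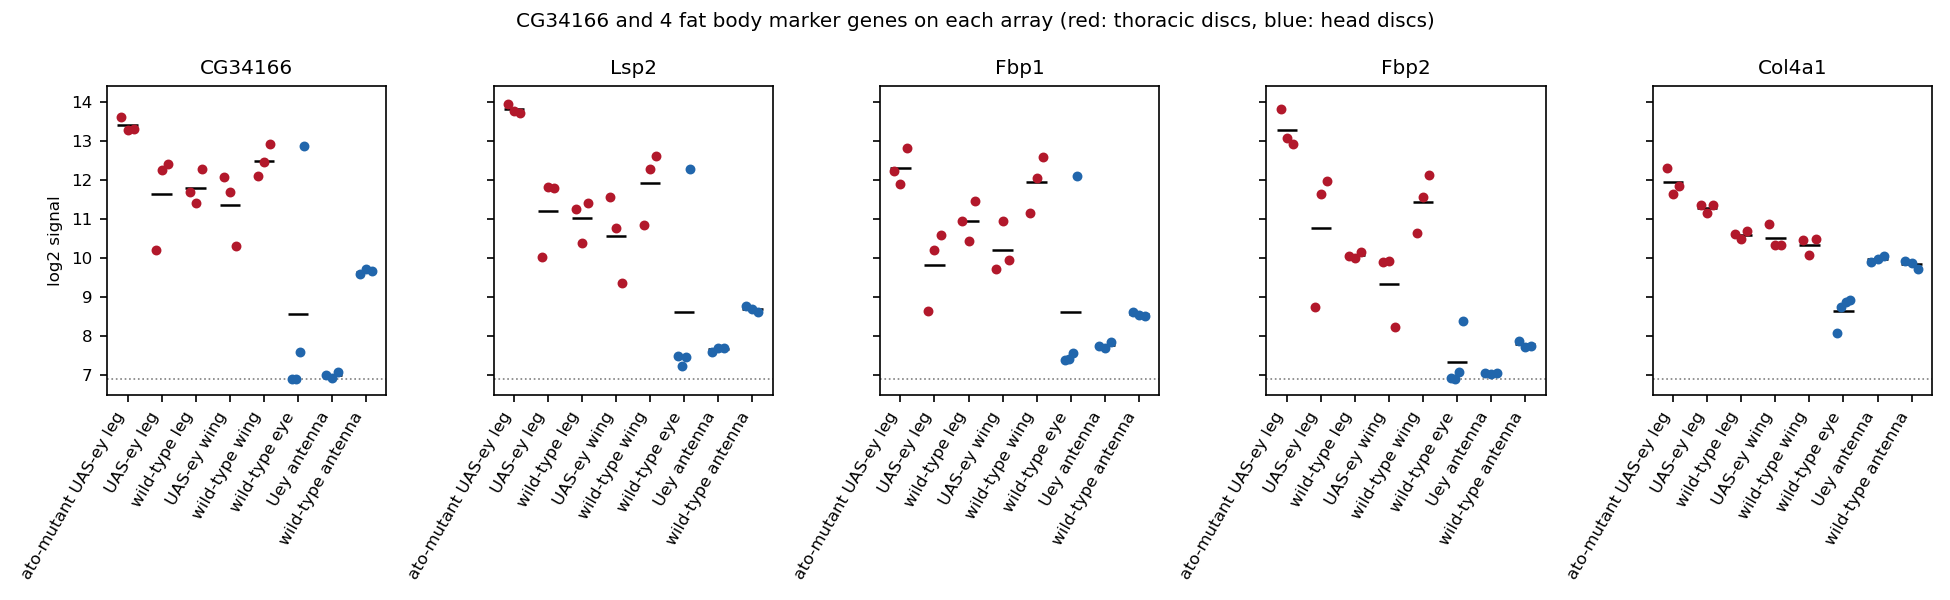
Log2 signal of CG34166 and of the fat body markers Lsp2, Fbp1, Fbp2 and Col4a1 on each array, with black bars for group means and a dotted line at the floor. On eye replicate 4, CG34166 stands at 12.88, Lsp2 at 12.28 and Fbp1 at 12.11, far above the other 3 eye arrays, while Col4a1 stands at 8.93, beside 8.86 on replicate 3.

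The response to ectopic ey was examined next. The rule used the wild-type groups in these comparisons, which favours a fall with ey in leg and wing discs and a rise in antennal discs. It also used the UAS-ey leg discs, so both arms of UAS-ey against wild-type leg discs helped to choose the genes. CG14598 rose in every comparison. It was 2.24 higher in UAS-ey than in wild-type leg discs (SE 0.17, adjusted p = 3.5e-08), a 4.71-fold rise, and 2.78 higher in ato-mutant UAS-ey than in wild-type leg discs (SE 0.17, adjusted p = 1.0e-09). Both leg comparisons share the wild-type leg arrays, and the first crosses the array sets. In Uey antennal discs it rose by 1.53 (SE 0.17, adjusted p = 4.2e-06) and in UAS-ey wing discs by 0.68 (SE 0.17, adjusted p = 0.0209). The wing call lay near the threshold. It ended without UAS-ey replicate 1 (0.56) or 3 (0.67) and without wild-type replicate 1 (0.63) or 3 (0.68). The adjusted p was then between 0.0525 and 0.112. The call also ended after quantile normalization, with either covariate and in a fit on the wing arrays alone.

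In antennal discs 2 of the 8 genes rose and 1 fell, where 7.04% of all probe sets rose and 4.46% fell. CG13067 rose at least 5.85-fold, to 9.46 ± 0.07 in Uey discs, against the floor on all 3 wild-type arrays (adjusted p = 4.4e-04). CG15353 fell by 2.12 (SE 0.38, adjusted p = 8.1e-04), to 7.09 ± 0.08 in Uey against 9.21 ± 0.04 in wild-type discs (SD, n = 3 each). CG34166 changed by -2.64 (SE 1.08, adjusted p = 0.15), and the fat body markers Lsp2 and Fbp1 by -1.02 and -0.80, none past the threshold. The change of CG9593 was -0.40 (adjusted p = 0.0531) and that of CG9372 -0.28 (adjusted p = 0.509). CG13678 was at the floor in both groups. Within the 6 antennal arrays alone, whose replicates were alike, 6 of the 8 genes were called, the same 3 and CG34166, CG9593 and CG9372, all 3 lower, where that fit called 11.9% of all probe sets higher and 10% lower.

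In wing discs 1 of the 8 genes, CG14598, rose, where 2.94% of all probe sets rose and 2.38% fell. CG15353 changed by 0.77 (SE 0.38, adjusted p = 0.344) and CG13678 by 0.65 (SE 0.32, adjusted p = 0.345). Without wild-type replicate 1, the high array, CG13678 was called at 1.17 (adjusted p = 0.00405). CG34166 changed by -1.14 (SE 1.08, adjusted p = 0.80), beside -1.36 for Lsp2 and -2.10 for Fbp2, neither past the threshold. Salivary gland markers were lower in UAS-ey wing discs in 4 of 9 cases, and their part in these values was not tested. The responses of antennal and wing discs differed for CG15353, by -2.89 (SE 0.53, adjusted p = 0.00729), the one gene of the 8 past the threshold, where 0.192% of all probe sets were lower and 0.751% higher. CG13067 came next, at 2.26 (SE 0.60, adjusted p = 0.106). The call for CG15353 held without each of the 12 arrays in turn, but not with the phe control as a covariate (-2.36, adjusted p = 0.14).

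In leg discs labelled UAS-ey, 1 of the 8 genes, CG14598, was higher than in the wild type, where 9.02% of all probe sets rose and 10.3% fell. CG13678 changed by -0.84 (SE 0.32, adjusted p = 0.0765), CG15353 by -0.77 (SE 0.38, adjusted p = 0.18) and CG9593 by -0.29 (SE 0.13, adjusted p = 0.142), none past the threshold. Of the 9 salivary gland markers 6 were lower in UAS-ey leg discs, and ey itself read 10.59 against 12.04. With the ato mutation in addition, 4 of the 8 genes were higher than in wild-type leg discs, where 12.3% of all probe sets were higher and 8.87% lower. Beside CG14598, CG13067 rose by 1.95 (SE 0.43, adjusted p = 0.00269), CG13678 by 1.58 (SE 0.32, adjusted p = 0.00146) and CG9372 by 1.16 (SE 0.19, adjusted p = 2.2e-04). This comparison lies within 1 array set. All 7 haemocyte markers and 2 of 4 fat body markers were higher in the ato-mutant UAS-ey discs, with a summed haemocyte signal of 3983 to 12495 against 1157 to 1685 in wild-type leg discs. With the fat body marker mean as a covariate, all 4 calls held, where 7.02% of all probe sets were higher and 5.22% lower. In that fit CG34166 changed by -2.14 (SE 0.38, adjusted p = 0.00138), against 1.61 (SE 1.08, adjusted p = 0.358) without the covariate. A covariate for the haemocyte markers was not tested.

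**Figure D4:**
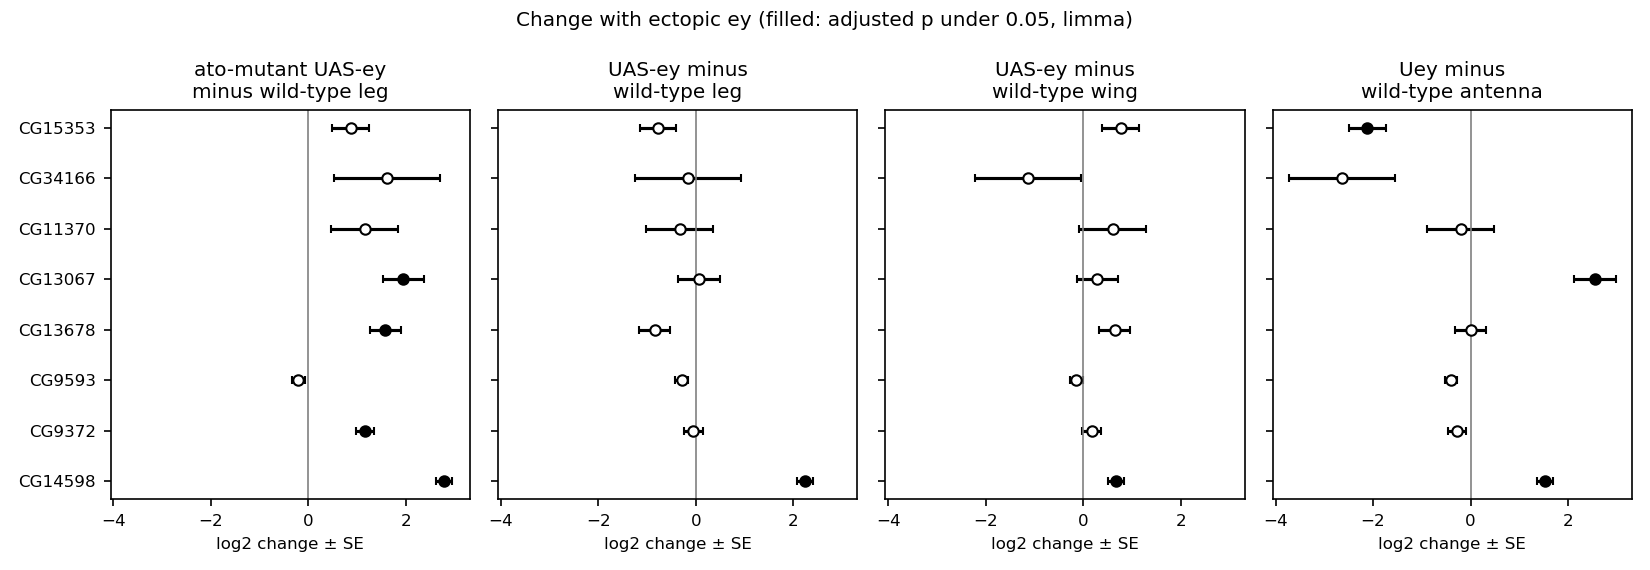
Log2 change (± SE from limma) of the 8 genes in ato-mutant UAS-ey and UAS-ey against wild-type leg discs, UAS-ey against wild-type wing discs and Uey against wild-type antennal discs, with filled points for an adjusted p under 0.05. CG14598 is filled in all 4 comparisons, and CG15353 is filled in antennal discs only, at -2.12.

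Between ato-mutant UAS-ey and UAS-ey leg discs, 5 of the 8 genes were higher in the ato mutant, where 14.5% of all probe sets were higher and 9.03% lower. The rule used the UAS-ey leg discs as a high group, and not those of the ato mutant. CG13678 was higher by 2.42 (SE 0.32, adjusted p = 2.8e-05), CG13067 by 1.88 (SE 0.43, adjusted p = 0.00354), CG15353 by 1.64 (SE 0.38, adjusted p = 0.00394) and CG9372 by 1.21 (SE 0.19, adjusted p = 1.4e-04). CG14598 was higher by 0.55 (SE 0.17, adjusted p = 0.0225), a call lost without ato-mutant replicate 1 (0.37) or UAS-ey replicate 2 (0.50). The groups lie in different array sets, and ey itself read 12.53 against 10.59. With the phe control as a covariate only CG13678 was called (2.76, SE 0.63, adjusted p = 0.0334), where 1.19% of all probe sets were higher and 0.469% lower. With the fat body marker mean as a covariate CG15353 lost its call (1.35, adjusted p = 0.0838), and CG34166 differed by -1.79 (adjusted p = 0.00479) against 1.77 (adjusted p = 0.279) without it. All 7 haemocyte, 7 of 9 salivary gland and 2 of 4 fat body markers were higher in the ato mutant too, and the part of haemocyte and salivary gland RNA in these results was not tested. CG9593 differed by 0.09 (SE 0.13, adjusted p = 0.821).

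Leg and wing discs shared the set, and the genes called between them were not called in fits on the compared arrays alone. The rule required both wild types to be high, which limits large differences between them. In the wild type CG9593 was higher in leg discs by 0.64 (SE 0.13, adjusted p = 0.00736) and the leg minus wing difference of CG14598 was -0.76 (SE 0.17, adjusted p = 0.0123), against 2.24% of probe sets higher and 2.88% lower. Both calls ended without wild-type wing replicate 2 (0.55 and -0.72) or 3 (0.54 and -0.75), and that for CG14598 also without wild-type leg replicate 2 (-0.64). In a fit on the compared arrays alone both were lost, where 0.522% of all probe sets were higher and 0.511% lower. Without wing replicate 1, 4 genes were called, CG13067 (1.38) and CG13678 (0.87) in addition, where 6.66% of all probe sets were higher and 11.6% lower.

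With ectopic ey, in groups the rule did not use, 5 genes were higher in ato-mutant UAS-ey leg than in UAS-ey wing discs, where 8.37% of probe sets were higher and 8.17% lower. CG13067 was higher by 2.55 (SE 0.43, adjusted p = 3.6e-04), CG14598 by 1.35 (SE 0.17, adjusted p = 1.4e-05), CG13678 by 1.28 (SE 0.32, adjusted p = 0.00976), CG9372 by 0.80 (SE 0.19, adjusted p = 0.00703) and CG9593 by 0.58 (SE 0.13, adjusted p = 0.00482). The ato mutation and the disc change together here and cannot be told apart. In a fit on these 6 arrays alone all 5 calls were lost (adjusted p between 0.0636 and 0.271). That fit called 1.47% of all probe sets higher and 1.61% lower. All 7 haemocyte and 3 of 4 fat body markers were higher in the leg discs. With the fat body marker mean as a covariate CG13678 (1.44, adjusted p = 0.0698) and CG9372 (0.73, adjusted p = 0.122) lost their calls. In that fit 4.1% of all probe sets were higher and 4.89% lower. CG9593 was the one gene called higher in leg than in wing discs both here and in the wild type. In the wild type 0 of 4 fat body and 0 of 7 haemocyte markers were past the threshold between leg and wing. The median leg minus wing difference of the fat body markers was nevertheless -0.93. In leg and wing discs Lsp2 averaged 11.03 and 11.91, Fbp1 10.95 and 11.93, and Fbp2 10.07 and 11.44. Col4a1 went the other way, at 10.60 and 10.34.

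Within the head, CG9593 was lower in eye than in antennal wild-type discs, at the floor on all 4 eye arrays against 7.30, 7.40 and 7.25 in antennal discs (adjusted p = 0.0392), where 5.43% of all probe sets were higher and 5.18% lower. The rule used both groups as low groups, so this difference is not independent of the choice of genes. The call for CG9593 ended without any single one of the 7 arrays, with values between -0.44 and -0.36. CG15353 differed by -0.99 (SE 0.35, adjusted p = 0.0918) and CG34166 by -1.08 (SE 1.01, adjusted p = 0.792). With the replicate number as a block, these differences were -1.22 (adjusted p = 0.0487) and -2.51 (adjusted p = 0.00407), and that of CG9593 lost its call (-0.40, adjusted p = 0.0973). The block gives eye replicate 4 a level of its own, so its estimates are those without that array. CG11370, the only member brighter in eye discs by more than 0.5, differed by 0.84 (SE 0.64, adjusted p = 0.634).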

How the data were processed

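Larval disc RNA (100 ng a sample) was amplified in a two-cycle protocol and hybridised to Affymetrix arrays, per the labels' protocols. The deposited values are log2 signals per probe set, and the authors' scaling and summary method are not stated in the sources used here. Array medians were 7.54 to 7.86, and 25.2% to 33.7% of probe sets were at the floor of 6.91. Affymetrix values carry no counts, so the number of arrays limits the precision.

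Probe sets were named through the platform annotation: 13646 had 1 gene, 402 several and 4721 none, and 183 controls were left out. Each gene was read from the probe set with the highest mean. A mean per group was fitted on all 25 arrays with limma 3.58.1 (R 4.3.3), with eBayes and Benjamini-Hochberg adjustment over 18769 probe sets, two-sided at 0.05. With 17 residual and 0.45 prior degrees of freedom the spread came almost wholly from each gene's own arrays. Groups at the floor have no spread and can lower the SE of their gene. The fit was tested on simulated data. No column of the value table was left unmapped.

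The genes, marker lists and tests were chosen with earlier results of these data known. All 8 genes were named, with 3 on either side of the limit and the 10 named genes with the largest margins. Alternatives were quantile normalization, median centring, a floor filter, fits on the compared groups alone, a phe or fat body covariate, each replicate left out, and the replicate number as a block. Same-numbered arrays deviated together in only 1 comparison, eye against antenna (correlations 0.14 to 0.15), and there the blocked values stand beside the result.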

Additional observations from a re-analysis of the deposited data

Results flagged for a closer look

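Replicate 4 of the wild-type eye discs was far above the other 3 arrays for CG34166, at 12.88. For CG13678 it was the one array above the floor, but only slightly, at 7.19 against 6.91. The same array stood apart for the fat body markers Lsp2, at 12.28, Fbp1, at 12.11, and Fbp2, at 8.39, but not for the fourth measured one, Col4a1, at 8.93 beside 8.74 and 8.86 on replicates 2 and 3. The limit for such a gap was set for about 1 in 20 groups of normally distributed values. With values at the floor, and with several genes searched on the same arrays, that rate does not hold here. In CG15353 the response to ectopic ey differed between antennal and wing discs, by -2.89 on the log2 scale.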

How the results depend on the processing

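Counts are of the 8 genes past the threshold. Brackets give the percent of tested probe sets called higher and lower in that setting. Eye against antenna gave 1, but 0 after median centring (4.51, 3.5). It gave 2 in a fit on its own groups (5.16, 5) and 2 with the replicate block (4.74, 4.29). The antennal minus wing response gave 1, but 2 with the fat body covariate (0.634, 0.181) and 0 with the phe covariate (0.511, 0.117). UAS-ey in wing discs gave 1, and 0 with the fat body (2.24, 1.69) or phe covariate (2.25, 1.66). It also gave 0 after quantile normalization (2.88, 2.91) or on its own groups (0.495, 0.24). Uey in antennal discs gave 3, but 5 with the fat body covariate (6.56, 4.19) and 6 on its own groups (11.9, 10). On their own groups leg against wing gave 0 in the wild type (0.522, 0.511) and with ectopic ey (1.47, 1.61). There loss of ato gave 3 of 5 (6.8, 3.69) and UAS-ey in leg discs 2 (5.29, 6.79). Loss of ato gave 1 with the phe covariate (1.19, 0.469), and UAS-ey in leg discs 2 after the floor filter (12.4, 14.5). Without UAS-ey leg discs the rule gave 133 genes. Leaving out 1 array gave 7 to 10 member genes. For these fits the brackets give the range of each percentage. Each time 7 were called in the thoracic against head test (13.5 to 18.6, 6.81 to 11.6). In ato-mutant leg discs 4 were called each time (9.02 to 12.6, 6.1 to 9.12). Leg against wing with ectopic ey always gave 5 (6.41 to 9.15, 4.92 to 8.14). Uey antennal discs always gave 3 (5.09 to 5.82, 3.08 to 3.58). UAS-ey leg discs always gave 1 (6.28 to 9.31, 7.42 to 11.5). The response difference gave 1 to 3 (0.554 to 1.22, 0.133 to 0.698). Eye against antenna gave 0 to 2 (4.23 to 5.42, 3.61 to 5.21). Wild-type leg against wing gave 0 to 4 (1.12 to 6.66, 0.938 to 11.6). Loss of ato gave 4 to 5 (10.4 to 15.2, 5.6 to 9.41). UAS-ey wing discs gave 0 to 1 (2.21 to 3.49, 1.55 to 2.64).

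Signs turned in these cases, with values uncalled before. For UAS-ey in leg discs, CG9372 became 0.014 after quantile normalization and 0.0092 with the phe covariate, which also gave CG15353 0.054, CG34166 2.33 and CG11370 0.40. In loss of ato, CG9593 became -0.14 after quantile normalization and -0.043 after centring, and CG34166 -1.14 with the phe covariate. The same covariate gave CG11370 0.032 in Uey antennal discs, CG13678 -0.0010 in eye against antenna and CG34166 0.074 in the response difference. The fat body covariate, added after the data were seen, gave CG34166 -0.47 in the thoracic against head test (called 5.36 without it), 1.04 in UAS-ey wing, -2.14 in ato-mutant leg discs, -1.79 in loss of ato, and 0.58 in wild-type and -2.59 in ectopic ey leg against wing, where CG15353 became -0.081. Leaving out 1 array gave CG34166 -0.55 to 0.55, CG13067 -0.15 to 0.28 and CG9372 -0.20 to 0.071 in UAS-ey leg discs. In UAS-ey wing discs it gave CG13067 -0.24 to 0.77, CG9593 -0.26 to 0.045 and CG11370 -0.15 to 1.52. In wild-type leg against wing it gave CG11370 -0.64 to 1.03 and CG13678 -0.013 to 0.87. The cause was not tested.

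With the replicate block 73 of 80 gene values kept their direction and side of the threshold, 1 lost and 6 gained a call. Outside eye against antenna the numbers did not pair the arrays, with correlations from -0.41 to 0.35. The floor bounds what low genes can show.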
